A study of Mus musculus with 6 samples.

Results

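Glutathione S-transferases were examined in cultured primary mouse pulmonary endothelial cells. The 10 genes, Gsta4, Gstm1, Gstm2, Gstm5, Gsto1, Gstp1, Gstt1, Gstz1, Mgst1 and Mgst3, were taken by symbol from the count tables, and 10 of 10 were found among 33006 genes. They were chosen by name and not by a threshold on these values. All cells came from the C57BL/6 strain and carried no engineered allele named in the labels, which give neither the age nor the sex of the animals. Controls received water and the treated cells 300 uM hydrogen peroxide (H2O2), an oxidant, for 6 hours at 80% confluence, both in EBM-2 basal medium with the EGM-2 MV supplements. Each group had 3 mRNA libraries, each with 1 table of whole-number read counts per gene. The labels do not say that the 3 libraries of a group came from separate cultures or animals, so a p-value reflects no more than the variation among these libraries, part or all of which may be technical.

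These enzymes join the tripeptide glutathione to reactive, electrophilic molecules, which include aldehydes and epoxides formed when oxidants attack lipids. The cytosolic enzymes fall into classes named by Greek letters (alpha, mu, omega, pi, theta, zeta), while the microsomal enzymes are an unrelated family embedded in membranes. Several of these genes are known targets of NRF2, the transcription factor that oxidants and electrophiles release from its inhibitor KEAP1. The conjugates leave the cell through export pumps and are trimmed to mercapturic acids.

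The libraries held 22455388 to 27618679 counts on genes. The endothelial markers Cdh5 (1173 CPM, mean of 6 libraries), Pecam1 (1057) and Tie1 (682) were abundant, and 9 of 10 listed endothelial markers exceeded 1 CPM, Cldn5 being the exception. CPM is the normalised read count per library of equal TMM-adjusted size. The summed endothelial markers lay at 4082 to 4168 CPM in controls and 4310 to 4338 CPM with H2O2, and the 5 lymphatic endothelial markers, mostly Lyve1 (1870 CPM), at 2188 to 2242 and 2250 to 2294 CPM. By edgeR's adjusted p, 3 of 9 tested endothelial markers were called higher (Emcn 0.24, Tek 0.17 and Pecam1 0.10, log2 fold change). So were 3 of 4 tested lymphatic markers (Mmrn1 0.54, Prox1 0.35 and Flt4 0.10), beside 9.7% of all tested genes. Prox1 lost its call without control replicate 2 or H2O2 replicate 2 (0.27 at the lowest), and Flt4 without control replicate 3 (0.10). Markers of other lung cells were low, with sums that overlapped between the groups. The alveolar list, nearly all Hopx (35.7 CPM), summed to 34.8 to 37.8 CPM in controls and 36.7 to 38.5 CPM with H2O2, with Sftpc, Sftpa1 and Krt8 at 0 in all 6 libraries. The fibroblast list, led by Dcn (22.3 CPM) and Pdgfra (4.27 CPM), summed to 27.0 to 28.8 and 24.9 to 28.0 CPM, with Col1a2 and Tcf21 at 0. The mural list, led by Pdgfrb (1.62 CPM), stayed at or under 5.42 CPM, the mesothelial list at or under 0.558 CPM and the airway list at or under 0.181 CPM. The 7 leukocyte markers found in the tables summed to 159 to 166 CPM in controls and 164 to 172 CPM with H2O2, nearly all of it Cd68 (163 CPM), a lysosomal protein, with Cd3e at 0. The called endothelial and lymphatic markers thus rose beside the transferase changes below, and their part in those changes was not tested. The other tested markers of both lists did not pass, among them Lyve1 (0.02), Cdh5 (0.06), Tie1 (-0.01) and Erg (-0.03, log2 fold change). In bulk RNA of this kind, fewer cells of a type and less RNA per cell cannot be told apart.

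With H2O2, 1 of the 10 transferase genes rose (Mgst3) and 3 fell (Gsta4, Gsto1 and Gstp1). The other 6 did not pass. A call is an adjusted p under 0.05 in the quasi-likelihood test of edgeR, adjusted by Benjamini-Hochberg over the 12924 genes tested, and all 10 genes passed the filter on low counts. Of all tested genes 20.5% were called, 9.70% higher and 10.8% lower, so that 1 of 10 higher was near the background, and 3 of 10 lower was above it by a few genes in a short list. The median log2 fold change (H2O2 over control) was 0.04 for the 10 genes and -0.00 for all tested genes. The libraries of the groups did not overlap for 4 of the 10 genes (Mgst3, Gstm5, Gsta4 and Gsto1), against 34.6% of all tested genes.

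**Figure D1:**
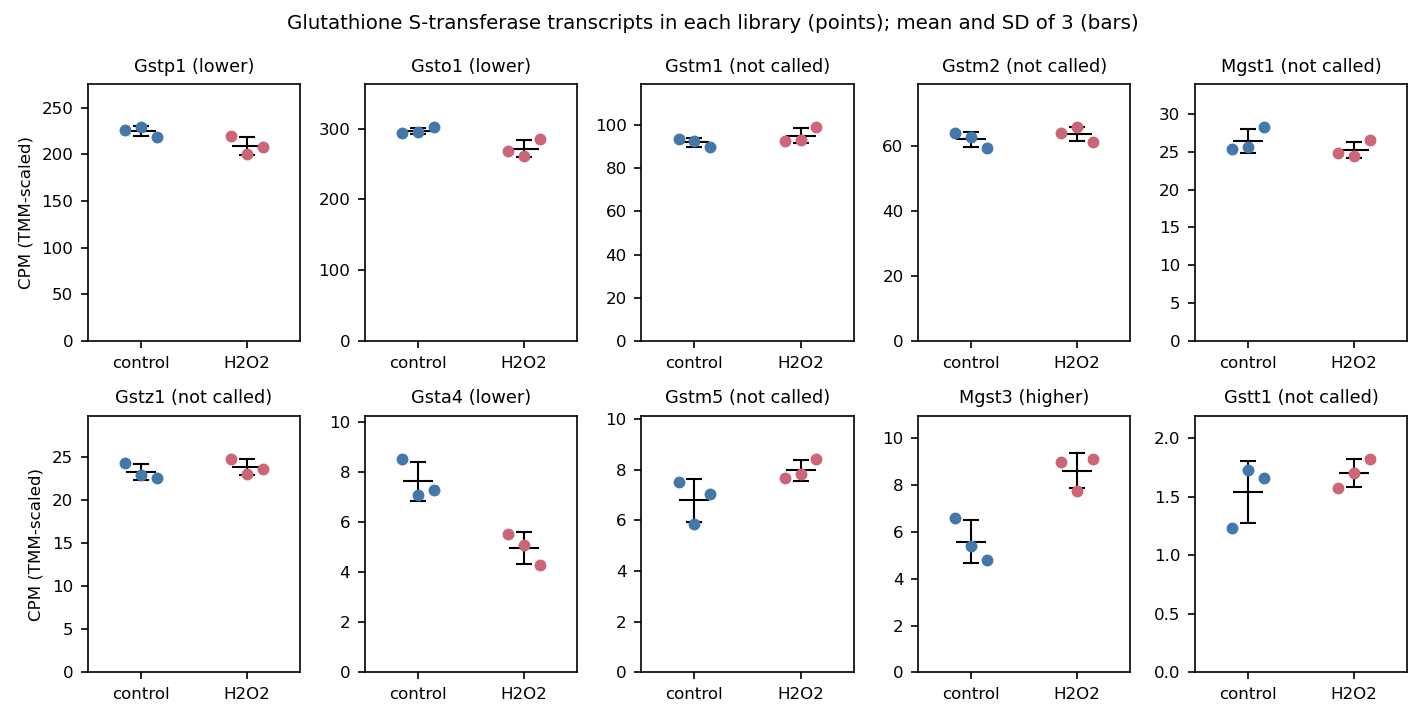
Level of each gene in each library (points, CPM after TMM scaling, vertical axes starting at 0), with the mean and SD of 3 libraries per group (black bars) and the call in the title. The H2O2 points of Mgst3 lie above all controls (7.76 to 9.12 against 4.79 to 6.58 CPM) and those of Gsta4 below them (4.27 to 5.55 against 7.07 to 8.53 CPM).

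Levels between genes were set side by side per kilobase of the longest coding transcript in GENCODE M21. In controls, Gstp1 (273 ± 6.61 CPM per kb, mean ± SD, n = 3) and Gsto1 (251 ± 3.63) led. They were followed by the mu class genes Gstm1 (71.3 ± 1.53) and Gstm2 (58.3 ± 2.14), then Mgst1 (22.6 ± 1.34) and Gstz1 (14.04 ± 0.570). Gsta4 (7.82 ± 0.804) and Gstm5 (7.19 ± 0.896) did not differ beyond their spread, Mgst3 stood at 5.09 ± 0.829, and Gstt1 was lowest at 1.39 ± 0.241. Gsto1 and Gstp1 changed places if all annotated exons were taken as the length (147 ± 2.12 and 145 ± 3.50 CPM per kb), so their order was not resolved. By that length Gstz1 (4.57 ± 0.19) lay below the means of Gsta4 (6.03 ± 0.62), Gstm5 (5.32 ± 0.66) and Mgst3 (5.09 ± 0.83). The place of Gstz1 thus depended on the length taken. With H2O2 Gstp1 and Gsto1 led too, but the order of the low genes differed: Gstm5 (8.44 ± 0.427 CPM per kb) and Mgst3 (7.86 ± 0.683) stood above Gsta4 (5.08 ± 0.660).

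**Figure D2:**
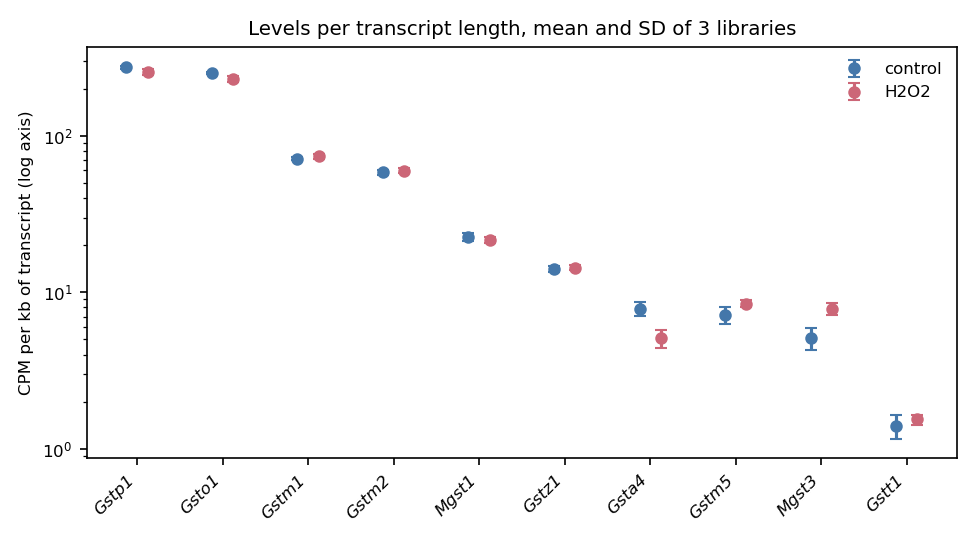
Level per kilobase of transcript (CPM per kb, log axis) for each gene, ordered by the control mean, as mean and SD of 3 control (blue) and 3 H2O2 (red) libraries. Gstp1 and Gsto1 lie above 200 CPM per kb, Gstt1 lies under 2, and Mgst3 and Gsta4 exchange their order between the groups.

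Mgst3 encodes a microsomal glutathione transferase, an integral membrane protein whose human form has peroxidase activity towards lipid hydroperoxides. Its level was 6.58, 5.38 and 4.79 CPM in control replicates 1, 2 and 3 and 8.97, 7.76 and 9.12 CPM in H2O2 replicates 1, 2 and 3. All H2O2 libraries lay above all controls. The rise was 1.54-fold, or 0.62 on the log2 scale (SE 0.111, 95% interval 0.39 to 0.85, adjusted p = 1.8e-04 by edgeR), and Mgst3 had the smallest p of the 10 genes. It rests on 107 to 165 counts per control library and 214 to 250 per H2O2 library. The spread among controls (16.3% of the mean) was wider than the 8.56% that counting error alone gives at that depth. Every alternative that was run kept the call, with values of 0.53 to 0.76.

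Mgst3 lies on chromosome 1 (mm10, GENCODE M21) at 167371966 to 167393841 on the minus strand, with no exon shared with another annotated gene. Its promoter window, from 250 bases before to 50 after the RefSeq start (GRCm38.p6, chr1:167393792-167394091, minus strand), is shown because it is the only one of the 10 genes that was called higher. Capitals mark GGGCGG, the GC box letters bound by Sp1-type factors, found 4 times between -36 and 7 from the start.
Mgst3: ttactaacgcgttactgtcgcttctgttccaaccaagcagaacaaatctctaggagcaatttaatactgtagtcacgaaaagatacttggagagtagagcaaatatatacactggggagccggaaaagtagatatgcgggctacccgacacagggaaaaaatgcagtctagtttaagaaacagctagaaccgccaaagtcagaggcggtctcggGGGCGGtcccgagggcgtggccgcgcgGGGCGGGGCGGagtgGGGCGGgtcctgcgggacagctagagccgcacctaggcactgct
The antioxidant response element core, TGACNNNGC, searched on both strands, was not in this window.

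The genes whose pattern over the 6 libraries was most like that of Mgst3 were sought outside the gene lists. By the smallest root mean square difference of centred log2 CPM they were Lrg1 (0.08), Ankrd44 (0.09), Stxbp6 (0.09), Slc15a2 (0.09) and Gnrh1 (0.10), against a median difference of 0.36 over all tested genes. This is a description over 6 libraries that differ by treatment, and picking the smallest differences puts these genes below the median. Among them Slc15a2 (adjusted p = 0.20 by edgeR) and Gnrh1 (0.31) were not called.

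Mgst1, the related microsomal transferase of the endoplasmic reticulum and outer mitochondrial membrane, did not pass. It stood at 25.4, 25.7 and 28.2 CPM in control replicates 1 to 3 and at 24.8, 24.4 and 26.5 CPM in H2O2 replicates 1 to 3. The groups overlapped, with a log2 fold change of -0.06 (95% interval -0.19 to 0.06, adjusted p = 0.49 by edgeR). The difference between Mgst1 and Mgst3 was not tested.

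Gsta4 is the alpha class enzyme best known for conjugating 4-hydroxynonenal, a toxic aldehyde from oxidised membrane lipids. It had 8.53, 7.07 and 7.30 CPM in control replicates 1 to 3 and 5.55, 5.07 and 4.27 CPM in H2O2 replicates 1 to 3. Every H2O2 library lay below every control. The level was 1.54-fold lower (log2 fold change -0.62, SE 0.114, 95% interval -0.86 to -0.39, adjusted p = 2.1e-04 by edgeR), close in size to the rise of Mgst3 and opposite in direction. The libraries held 163 to 214 counts in controls and 117 to 144 with H2O2. Every alternative kept this call, with values of -0.71 to -0.53. Gsta4 lies on chromosome 9 at 78182774 to 78209349 on the plus strand, and none of its 50-base stretches occurs in another annotated transcript.

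The other alpha class genes were present at 0.635 to 2.80 CPM (group means). Gsta3 fell from 1.95 ± 0.366 to 1.25 ± 0.0544 CPM (log2 fold change -0.63, SE 0.213, adjusted p = 0.035 by edgeR), with all H2O2 libraries below all controls. That call ended without control replicate 3 (-0.48, adjusted p = 0.20 by edgeR), H2O2 replicate 1 (-0.67, 0.076), H2O2 replicate 2 (-0.62, 0.084) or H2O2 replicate 3 (-0.61, 0.078). Gsta1 (-0.36) and Gsta2 (-0.74) did not pass, on 13 to 75 counts per library, though Gsta2 was called without control replicate 1 (-0.98). All 4 alpha class genes thus had a negative log2 fold change, and 2 of them were called lower, beside 10.8% of all tested genes. The sign held in each alternative that gave a value, but these refit the same libraries. Other small classes had 1 sign too: the 2 tested omega and 2 tested pi class genes were negative, and the 3 tested theta class genes positive. The alpha class was singled out after its values were seen.

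Gsto1 encodes the omega class enzyme, which uses an active-site cysteine to reduce dehydroascorbate and to take glutathione off proteins. It was the most highly counted of the 10 genes, with 293.6, 295.8 and 302 CPM in control replicates 1 to 3 and 268, 261 and 285 CPM in H2O2 replicates 1 to 3. The groups did not overlap, and H2O2 replicate 3 lay closest to the controls. The level was 1.09-fold lower (log2 fold change -0.13, SE 0.0318, 95% interval -0.20 to -0.07, adjusted p = 3.8e-03 by edgeR). Its 6737 to 7800 counts per library put counting error near 1.2%, below the spread of 1.44% in controls and 4.42% with H2O2. Its neighbour Gsto2 on chromosome 19 stood at 4.65 ± 0.454 and 4.25 ± 0.459 CPM and did not pass (-0.14).

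Gstp1, the pi class enzyme, conjugates electrophiles, takes part in adding glutathione to proteins and binds the stress kinase JNK. It had 226, 229 and 219 CPM in control replicates 1 to 3 and 219, 199.9 and 208 CPM in H2O2 replicates 1 to 3. H2O2 replicate 1 overlapped the lowest control. The level was 1.07-fold lower (log2 fold change -0.10, SE 0.0333, 95% interval -0.17 to -0.03, adjusted p = 0.028 by edgeR). The call ended without control replicate 1 (-0.09, adjusted p = 0.075), control replicate 2 (-0.09, 0.14) or H2O2 replicate 2 (-0.07, 0.19), and with upper-quartile scaling factors (-0.09, 0.059). With a per-library offset for the length and GC content of transcripts it stood at -0.25 (adjusted p = 1.9e-07 by edgeR).

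Reads of Gstp1 are hard to place: 62.3% of the 50-base stretches of its transcript also occur in Gstp2, its neighbour on chromosome 19, and 45.6% in the pseudogene Gstp-ps. Reads aligned to more than 1 place, which the tables set aside, were 11.0% to 11.7% of all reads per library. The level of Gstp1 can therefore be an underestimate, and its small fall is uncertain. Gstp2 itself had 75 to 112 counts per library and did not pass (-0.30, adjusted p = 0.18 by edgeR), though it was called lower with the offset.

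Both Gsto1 and Gstp1 lie on chromosome 19, far apart, at 47854970 to 47864790 on the plus strand and at 4035407 to 4037985 on the minus strand. Their promoter windows (GRCm38.p6, chr19:47854723-47855022 and chr19:4037863-4038162) are shown because they are the most abundant genes of the family and were both called lower. Capitals mark GGGCGG in both. In Gstp1 they also mark TGANTCA, the AP-1 element, at -74, which overlaps a match to TGANNNNGC at the same base, and further matches to TGANNNNGC at -9 (opposite strand) and 30.
Gsto1: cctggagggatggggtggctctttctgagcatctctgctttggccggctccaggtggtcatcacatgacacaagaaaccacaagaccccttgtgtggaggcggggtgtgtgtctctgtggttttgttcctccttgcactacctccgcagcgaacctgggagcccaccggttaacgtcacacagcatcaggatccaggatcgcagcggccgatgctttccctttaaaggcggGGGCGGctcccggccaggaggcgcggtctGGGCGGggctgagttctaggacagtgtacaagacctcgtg
Gstp1: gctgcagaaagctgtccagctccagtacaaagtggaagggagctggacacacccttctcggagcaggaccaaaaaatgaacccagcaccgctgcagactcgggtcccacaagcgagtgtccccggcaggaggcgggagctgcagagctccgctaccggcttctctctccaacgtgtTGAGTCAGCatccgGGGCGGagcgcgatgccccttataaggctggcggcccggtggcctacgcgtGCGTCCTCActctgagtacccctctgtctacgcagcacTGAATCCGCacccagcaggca
Neither window held TGACNNNGC on either strand.

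RefSeq promoter windows were matched for 9 of the 10 genes, 12 windows in all. GGGCGG was in 7 of the 12 windows, from 6 genes, against 35.7% of all 32851 windows and 62.5% of the windows of tested genes. TGANTCA was in 2 windows, of Gstm5 and Gstp1 (7.81% of all windows, 5.16% for tested genes). TGACNNNGC was in 2 windows, of Gstm5 and Mgst1 (12.4% and 14.5%). TGANNNNGC, a looser form that contains TGACNNNGC and was chosen after the sequences were seen, was in 6 windows, from 5 genes (41.3% and 42.8%). Both genes with TGACNNNGC were among those that did not pass the test. A match of letters is a description of the window, not a bound site.

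**Figure D3:**
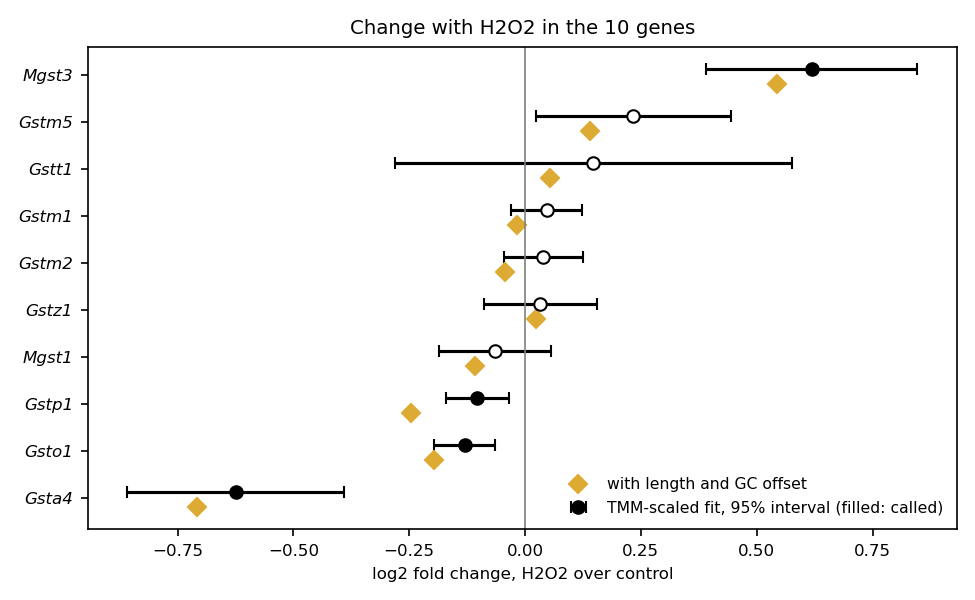
Log2 fold change of each gene (H2O2 over control) with its 95% interval (circles, filled where called) and the value from a fit with the length and GC offset (diamonds). Mgst3 and Gsta4 lie near 0.62 and -0.62, Gstp1 and Gsto1 close to 0 on the lower side, and each diamond lies to the left of its circle.

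The mu class enzymes, which conjugate epoxides and other aromatic electrophiles, did not pass. Gstm1 stood at 93.6, 92.5 and 89.8 CPM in control replicates 1 to 3 and at 92.8, 93.2 and 99.0 CPM in H2O2 replicates 1 to 3. Gstm2 stood at 63.9, 62.7 and 59.5 CPM in controls and at 64.2, 65.8 and 61.4 CPM with H2O2. The groups overlapped in each gene. The log2 fold changes were 0.05 (95% interval -0.03 to 0.12) for Gstm1 and 0.04 (-0.05 to 0.12) for Gstm2. In this fit alone the intervals end at a rise of 0.12 and a fall of 0.05. Both estimates turned negative with the length and GC offset (-0.02 and -0.04), where they were not called either. Of their 50-base stretches, 23.1% in Gstm1 and 9.36% in Gstm2 occur in other transcripts, chiefly pseudogenes and Gstm3.

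Gstm5, a mu class gene at a lower level, had 7.496, 5.85 and 7.03 CPM in control replicates 1 to 3 and 7.66, 7.83 and 8.43 CPM in H2O2 replicates 1 to 3. Its H2O2 libraries all lay above the controls by a narrow margin. It did not pass over all genes (log2 fold change 0.23, 95% interval 0.02 to 0.44, adjusted p = 0.11 by edgeR). Leaving out control replicate 1 gave 0.32 with adjusted p = 0.047, and leaving out control replicate 2 gave 0.13 with adjusted p = 0.46. Exons of 4933431E20Rik on the opposite strand cover 13.9% of its exon bases. Gstm4 (0.07) and Gstm7 (-0.09), 2 further mu class genes of the cluster on chromosome 3, did not pass. Thus 0 of 5 tested genes of this class were called, too short a list to set against the 20.5% of all tested genes. In edgeR 1 of them, Gstm5, had an unadjusted p under 0.05, and limma-voom and DESeq2's test, which gave Gstm7 no adjusted p, called 0. The sign of Gstm7 was not settled (-0.18 to 0.04 over the alternatives).

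Gstz1, the zeta class enzyme, is the maleylacetoacetate isomerase of tyrosine breakdown. It stood at 24.3, 22.9 and 22.5 CPM in control replicates 1 to 3 and at 24.8, 23.0 and 23.6 CPM in H2O2 replicates 1 to 3, with overlapping groups and a log2 fold change of 0.03 (95% interval -0.09 to 0.15). Exons of genes on the opposite strand, among them Pomt2, cover 12.2% of its exon bases.

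Gstt1, the theta class enzyme that acts on small halogenated compounds, was near the limit of measurement. It had 31, 44 and 37 counts in control replicates 1 to 3 and 41, 47 and 50 counts in H2O2 replicates 1 to 3, or 1.24 to 1.73 and 1.58 to 1.82 CPM. The log2 fold change was 0.15 with a 95% interval of -0.28 to 0.58, and counting error alone is 14.7% to 16.4% per library at this depth. The interval holds both no change and a rise almost as large as that of Mgst3. Gstt2 (13.1 ± 0.315 and 14.4 ± 1.06 CPM, log2 fold change 0.14) and Gstt3 (0.41) did not pass.

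Summed over the 10 genes, the level was 751, 749 and 741 CPM in control replicates 1 to 3 and 717, 690.1 and 727 CPM in H2O2 replicates 1 to 3. All H2O2 sums lay below all controls. Gsto1 and Gstp1 made up 39.8% and 30.1% of the control sum, while Mgst3 and Gsta4, which changed most, made up 0.748% and 1.02%. Without Gstp1 the sums were 520 to 525 CPM in controls and 490.2 to 519 CPM with H2O2.

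The calls differed between short and longer transcripts in these libraries. Among tested genes whose transcript was at most 1928 bases long, 18.3% were called higher and 5.96% lower. For transcripts of at least 4581 bases these shares were 7.15% and 12.1%. They were 7.58% and 11.8% for 1929 to 3064 bases, and 5.9% and 13.6% for 3065 to 4580 bases. The 10 transcripts are short, 821 to 1656 bases. Among the 1872 tested genes in that range, 358 were higher, 97 lower and the median log2 fold change was 0.05. With the length and GC offset these 4 genes were called too, with Mgst3 at 0.54, Gsta4 at -0.71, Gsto1 at -0.20 and Gstp1 at -0.25. Relative to genes of like length and composition the fall of Gstp1 was thus larger (-0.25 against -0.10 without the offset, log2 fold change). That of Gsto1 was larger too (-0.20 against -0.13).

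**Figure D4:**
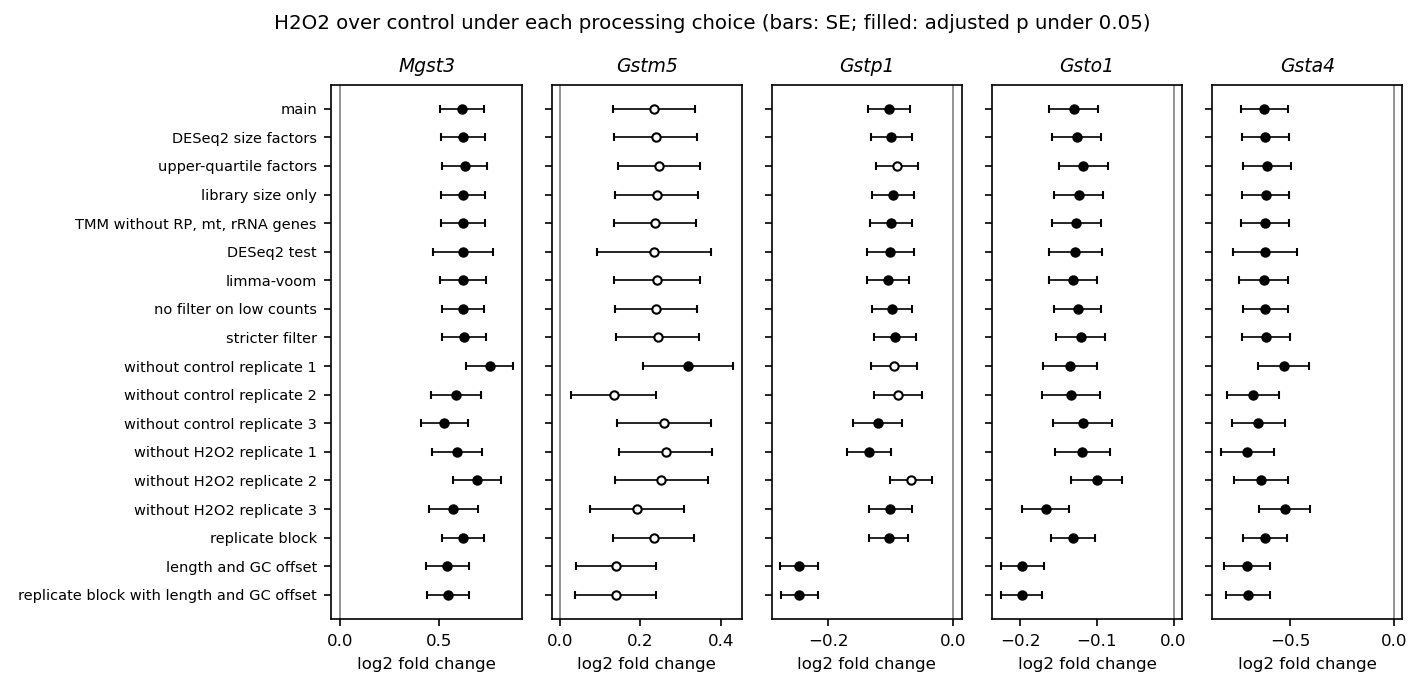
Log2 fold change (H2O2 over control, bars SE) of Mgst3, Gstm5, Gstp1, Gsto1 and Gsta4 under each processing choice, filled where the adjusted p is under 0.05. Mgst3, Gsto1 and Gsta4 are filled throughout, Gstp1 is open in 4 settings, and Gstm5 is filled in 1.

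Beyond these 10, 20 further genes of the transferase superfamily and its membrane relatives were listed. Of the 14 that were tested, 1 fell (Gsta3) and 0 rose, not above the background, with a median log2 fold change of -0.06. At an unadjusted p under 0.05 in edgeR, 1 was higher and 2 were lower, while DESeq2's test gave an adjusted p for 6 of the 14, not for Gsta3, and called 0 of those. Alox5ap, the most abundant of them over all 6 libraries and an arachidonate-binding membrane protein, stood at 28.1 ± 1.83 and 30.4 ± 0.472 CPM (0.12, adjusted p = 0.15 by edgeR). Gstk1 had 5 to 10 counts and Hpgds at most 2 per library, and neither was tested.

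Genes that supply glutathione and the NADPH that keeps it reduced moved in 1 direction where they were called. Of 19 tested, 8 fell and 0 rose, beside 10.8% lower and 9.70% higher among all tested genes. The median log2 fold change of the 19 was -0.06, with values from -0.57 to 0.16. In edgeR 2 were higher at an unadjusted p under 0.05, and DESeq2's test and limma-voom called 0 higher and 8 lower. Cystathionine gamma-lyase (Cth), which makes cysteine, fell most, from 112 ± 5.92 to 74.9 ± 4.14 CPM (-0.57). Glutathione synthetase (Gss) fell from 32.0 ± 0.301 to 24.5 ± 1.19 CPM (-0.38, SE 0.0543, adjusted p = 8.9e-06 by edgeR), and the regulatory subunit of glutamate-cysteine ligase (Gclm) from 171 ± 2.58 to 148 ± 4.50 CPM (-0.21). The cystine carrier Slc7a11 (-0.25) and the NADPH-producing enzymes Pgd (-0.25) and G6pdx (-0.19) fell too. The catalytic ligase subunit Gclc (-0.06), glutathione reductase Gsr (0.05) and Slc3a2 (-0.01), the most abundant gene of the list, did not pass. With the length and GC offset Gsr was called higher (0.08).

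For breakdown and export of the conjugates, 4 of 21 tested genes fell and 1 rose, with a median of -0.04. The share called was near the 20.5% of all tested genes, so the genes named here are described singly and not as a change of the list. The export pumps Abcc1, from 247 ± 9.10 to 204 ± 8.59 CPM (-0.28, SE 0.0339, adjusted p = 9.3e-07 by edgeR), and Abcc4 (-0.16) fell, as did the 5-oxoprolinase gene Oplah (-0.31) and the aminopeptidase gene Lap3 (-0.10). Slc25a39, the mitochondrial glutathione carrier, rose from 205 ± 2.54 to 219.5 ± 5.57 CPM (0.10). Its call ended with the length and GC offset (0.04, adjusted p = 0.36 by edgeR) and without control replicate 2 (0.09, 0.095), control replicate 3 (0.10, 0.075), H2O2 replicate 1 (0.10, 0.056) or H2O2 replicate 3 (0.08, 0.066). That of Lap3 ended in 10 of 17 alternatives, among them DESeq2's test and edgeR fits without control replicate 2 (-0.10, adjusted p = 0.099), control replicate 3 (-0.09, 0.13), H2O2 replicate 1 (-0.10, 0.11) or H2O2 replicate 2 (-0.09, 0.092). The gamma-glutamyltransferase Ggt1 (-0.04), which starts the trimming of conjugates, did not pass.

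Among other detoxification enzymes and NRF2 targets, 8 of 24 tested genes fell and 0 rose, beside 10.8% and 9.70% of all tested genes. The median of these 24 was -0.10. In edgeR 1 was higher at an unadjusted p under 0.05, and DESeq2's test called 0 higher and 7 lower. Besides Sqstm1, Hmox1 and Srxn1, these included Ptgr1, a reductase of reactive lipid carbonyls, from 23.1 ± 0.225 to 17.1 ± 1.74 CPM (-0.43, SE 0.0688, adjusted p = 3.8e-05 by edgeR). The ferritin heavy chain gene Fth1 (-0.23), the most abundant of the list, and the aldo-keto reductase gene Akr1b8 (-0.15) fell as well. Among the genes of this list that did not pass were Nqo1 (0.02), Ftl1 (0.05), Blvrb (0.08) and Akr1a1 (-0.02, log2 fold change). NRF2 itself (Nfe2l2) fell from 181 ± 9.62 to 161 ± 6.67 CPM (-0.17), its inhibitor Keap1 by 0.13, its relative Nfe2l1 by 0.13 and its partner Mafk by 0.32 on the log2 scale, so that 4 of 11 regulators fell and 0 rose (median -0.11). None was higher at an unadjusted p under 0.05 or by DESeq2's test (0 and 0), which called 4 lower. The call of Keap1 ended with the length and GC offset (-0.10) and without control replicate 2 (-0.13, adjusted p = 0.059 by edgeR), control replicate 3 (-0.13, 0.054) or H2O2 replicate 1 (-0.11, 0.088). Over these 5 lists together, 25 of 89 tested genes fell and 1 rose, with a median of -0.07, beside 10.8% lower and 9.70% higher among all tested genes.

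**Figure D5:**
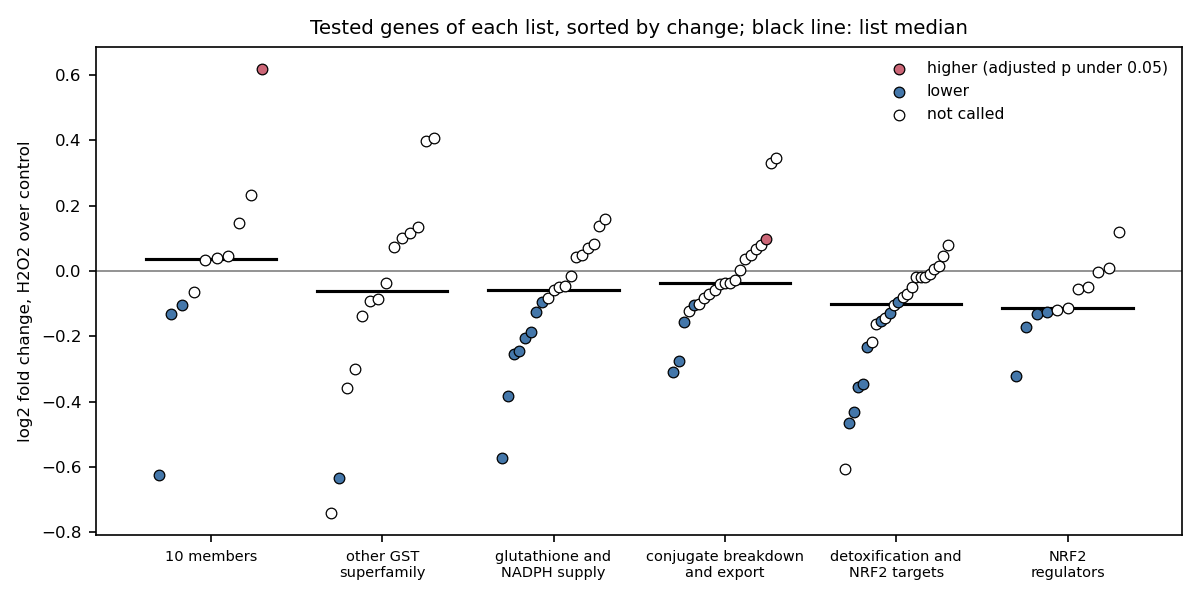
Log2 fold change (H2O2 over control) of each tested gene in the 10 genes and in 5 related lists, sorted within a list and coloured by call, with the list median as a black line. Mgst3, at 0.62, is the highest point of all 6 lists, and the called genes of the other lists lie below 0 except Slc25a39.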

How the data were processed

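RNA of 6 libraries was measured by mRNA sequencing. The authors deposited 1 table of raw read counts for each library, by gene symbol. The submitters' processing notes name STAR 2.5.3, HTSeq, cutadapt, DESeq2 and bcl2fastq 2.17.1.14, with build mm10. Annotation, strand setting and read length are not given in the sources used here, so reads of genes that overlap on opposite strands cannot be told apart. The 5 HTSeq summary classes, 19.1% to 20.0% of reads, entered neither library sizes nor tests.

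Genes were kept by filterByExpr (12924 of 33006) and tested with edgeR 4.0.16 (R 4.3.3) by the quasi-likelihood test, with TMM factors and a model of treatment alone. Adjustment was by Benjamini-Hochberg over all tested genes. Log2 fold changes are H2O2 over control, with SE and 95% interval from that fit. Counting errors given in percent cover counting alone, while the 95% intervals include the variation among libraries. Alternatives covered scaling factors, DESeq2 1.42.0, limma-voom (limma 3.58.1), filters on low counts, each library left out, the replicate number as a block, and a loess offset (span 0.3) for transcript length and GC content, known for 99.2% of tested genes. The fits were first run on simulated counts with known changes. Lengths, coordinates and shared 50-base stretches came from GENCODE M21, promoters from RefSeq on GRCm38.p6.

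The genes, lists, alternatives and rules were chosen with earlier results of these data known. Named are all 10 genes and, for each other list, up to 6 called genes with the smallest p and its most abundant gene. Further genes were named for their role after their values were seen. They were Gclc, Gsr, Ggt1, Nqo1, Ftl1, Blvrb, Akr1a1, Gstk1, Hpgds and members of the alpha, mu, omega, pi and theta classes.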

Additional observations from a re-analysis of the deposited data

How the results depend on the processing

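Of the 10 transferase genes, Mgst3, Gsta4 and Gsto1 kept their call and direction in all 17 alternatives. Leaving out 1 library at a time gave 0.53 to 0.76 for Mgst3, -0.71 to -0.53 for Gsta4, -0.17 to -0.10 for Gsto1, -0.136 to -0.0677 for Gstp1 and 0.13 to 0.32 for Gstm5 (log2 fold change). Gstp1 lost its call with upper-quartile factors (-0.0907) and without control replicate 1 or 2 or H2O2 replicate 2, and Gstm5 gained one without control replicate 1. Gstm1 and Gstm2 changed sign with the length and GC offset (-0.0169 and -0.0428) and with the replicate block and that offset together (-0.0173 and -0.0413). The cause was not tested. By DESeq2's test Gstt1 had no adjusted p. Across the table, leaving out 1 library gave 891 to 1178 higher genes in place of 1254 and 926 to 1313 lower genes in place of 1395, the lowest without control replicate 2 (higher) and without H2O2 replicate 1 (lower). Called members were 1 to 2 higher and 2 to 3 lower in those fits. The other lists had 1 rise, 2 with upper-quartile factors and with the stricter filter, and 0 to 2 with 1 library left out, and their falls ran from 19 to 28 over all alternatives.

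Same-numbered libraries did not deviate together (correlations 0.00, 0.03 and -0.03). With 3 libraries per group this cannot settle whether the numbers pair them, which the labels do not say. With the replicate block, 1 member was higher and 3 lower, with Mgst3 at 0.62 and Gsta4 at -0.62. Pairs that held H2O2 replicate 3 differed most within a group, with a chi-square of counts per degree of freedom of 8.61 and 10.96. The other pairs had 1.62 to 2.86. Without that library 1177 genes were called higher and 1313 lower. Low counts limit Gstt1, Gsta4, Gstm5 and Mgst3, and shared sequence limits Gstp1.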
